A study of Mus musculus with 2 samples.

Results

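The miRNA genes Mir493, Mir337, Mir540, Mir665, Mir431, Mir433, Mir127, Mir434, Mir136 and Mir370 form the proximal part of the imprinted Dlk1-Dio3 array on mouse chromosome 12. They were taken by name, by matching the gene identifiers of the count tables to GENCODE M21 symbols. No measured value enters that rule, but the members were chosen with earlier results of these data known. A row was found for 9 of the 10, out of 1973 miRNA gene rows in all, and Mir136 is treated apart below. Small RNA under 30 nt was sequenced from the neural tube of B6NCrl mouse embryos at embryonic day 11.5. The single group held 2 libraries, made from pools of 109 embryos (replicate 1) and 88 embryos (replicate 2) of both sexes, with no treatment named. The reads lying in a miRNA gene in its own orientation (own-strand counts) numbered 3708662 in replicate 1 and 4055883 in replicate 2. Levels are counts per 1000000 of these reads (CPM), as mean ± SD over n = 2. Since the RNA was under 30 nt, a count stands for a whole short RNA and was not divided by hairpin length. Both arms of a hairpin were counted together.

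The array carries imprinted genes, which are expressed from only one parental chromosome. Dlk1, Rtl1 and Dio3 code for proteins and are expressed from the paternal chromosome, while the noncoding RNAs Meg3, Rian and Mirg and the miRNAs are expressed from the maternal one. Rtl1, a gene derived from a retrotransposon and needed in mouse for placenta and muscle development, lies on the strand opposite the miRNAs. In mouse, miRNAs made from the maternal strand across Rtl1 are known to pair fully with the paternal Rtl1 mRNA and to direct its cleavage. The genes of the array are known to be active in embryonic tissues, brain among them.

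The hairpins lie on the plus strand of GRCm38, the assembly also called mm10, and span 38104 bp. Mir493 (ENSMUSG00000077025.2, chromosome 12, 109580233 to 109580315) comes first. Mir337 (ENSMUSG00000065526.3, 109585789 to 109585885), Mir540 (ENSMUSG00000072900.1, 109586080 to 109586146) and Mir665 (ENSMUSG00000076313.1, 109586314 to 109586407) follow within 619 bp of each other, with gaps of 194 bp and 167 bp. Mir431 (ENSMUSG00000070080.1, 109590447 to 109590537), Mir433 (ENSMUSG00000070072.1, 109591715 to 109591838), Mir127 (ENSMUSG00000070076.1, 109592846 to 109592915), Mir434 (ENSMUSG00000070133.1, 109594506 to 109594599) and Mir136 (ENSMUSG00000104858.1, 109595327 to 109595388) lie antisense to the coding sequence of Rtl1, wholly inside its second exon, within 4942 bp. Mir370 (ENSMUSG00000065433.1, 109618258 to 109618336) stands 22869 bp further on, inside the noncoding gene Rian on the same strand. The other 9 had no host gene annotated on their own strand in GENCODE M21.

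The mature sequences of the genes antisense to Rtl1 are shown because their complements are the part of the array that the annotation places inside a protein-coding mRNA. They are RefSeq sequences for GRCm38.p6, written 5′ to 3′, with the seed, bases 2 to 8, in capitals.
miR-431-5p: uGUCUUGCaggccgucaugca
miR-431-3p: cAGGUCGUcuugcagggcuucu
miR-433-5p: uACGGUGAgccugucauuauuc
miR-433-3p: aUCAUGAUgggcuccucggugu
miR-127-5p: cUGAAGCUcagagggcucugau
miR-127-3p: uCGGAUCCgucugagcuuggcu
miR-434-5p: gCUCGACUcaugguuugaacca
miR-434-3p: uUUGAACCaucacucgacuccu
miR-136-5p: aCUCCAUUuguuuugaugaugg
miR-136-3p: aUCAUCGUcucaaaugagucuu

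All 10 of these arms had a full-length complement in the coding sequence of the Rtl1 transcript, as their position on its other strand requires. A search of 58797 protein-coding transcripts of GENCODE M21 found the full complement of each in Rtl1 and in no other gene, and found none for the 10 arms of Mir493, Mir337, Mir540, Mir665 and Mir370. The Rtl1 sites of the 2 arms of Mir127 and of miR-431-5p are given on the minus strand of GRCm38, 5′ to 3′, with the complement of the seed in capitals.
Rtl1 site of miR-127-3p, chr12:109592888-109592909: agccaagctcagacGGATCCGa
Rtl1 site of miR-127-5p, chr12:109592854-109592875: atcagagccctctgAGCTTCAg
Rtl1 site of miR-431-5p, chr12:109590459-109590479: tgcatgacggcctGCAAGACa

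The 10 genes gave 20 mature arms of 19 to 26 nt, and these had 20 distinct seeds, so no members shared one. Of 1679 mature names in the RefSeq table, 2 of other genes shared a seed with an arm of the group. The seed of miR-540-3p is also that of miR-6915-5p, and the seed of miR-370-5p is also that of miR-1193-3p, whose gene lies in the distal part of the same array.
miR-540-3p: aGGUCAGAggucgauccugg
miR-370-5p: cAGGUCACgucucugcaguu

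None of the 9 hairpins with a row shared a run of 20 nt with another annotated hairpin, against 929 of 1894 hairpins over the whole table. By RNAfold, the 9 hairpins had a median minimum free energy of -43.4 kcal/mol at a median length of 91 nt, against -33.8 kcal/mol and 90 nt over the other 1885 hairpins. Free energy grows with length, and per nt the members' median was -0.501 kcal/mol, against -0.378 kcal/mol for the others, with Mir540 the lowest member at -0.610 kcal/mol and Mir433 the highest at -0.361 kcal/mol. These energies are descriptions of sequence and were not set against the counts.

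The 9 genes together took 1.34% ± 0.214 of the own-strand counts. The share was 1.49% in replicate 1 (95% Wilson interval 1.480 to 1.505) and 1.19% in replicate 2 (1.18 to 1.20). These intervals cover counting error only, and the libraries differed by more than they allow. The share was 0.640% with all reads as the denominator and 3.12% of a total that leaves out the 10 most abundant genes. Each member was detected in both libraries, with ranks from 41 to 178 by mean CPM among the 1973 rows, of which 1249 had no count in either library. In pooled tissue such as this, fewer cells of a type and less RNA per cell cannot be told apart. Capture can differ from one miRNA to another, so a ratio between genes is a ratio of counts.

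**Figure D1:**
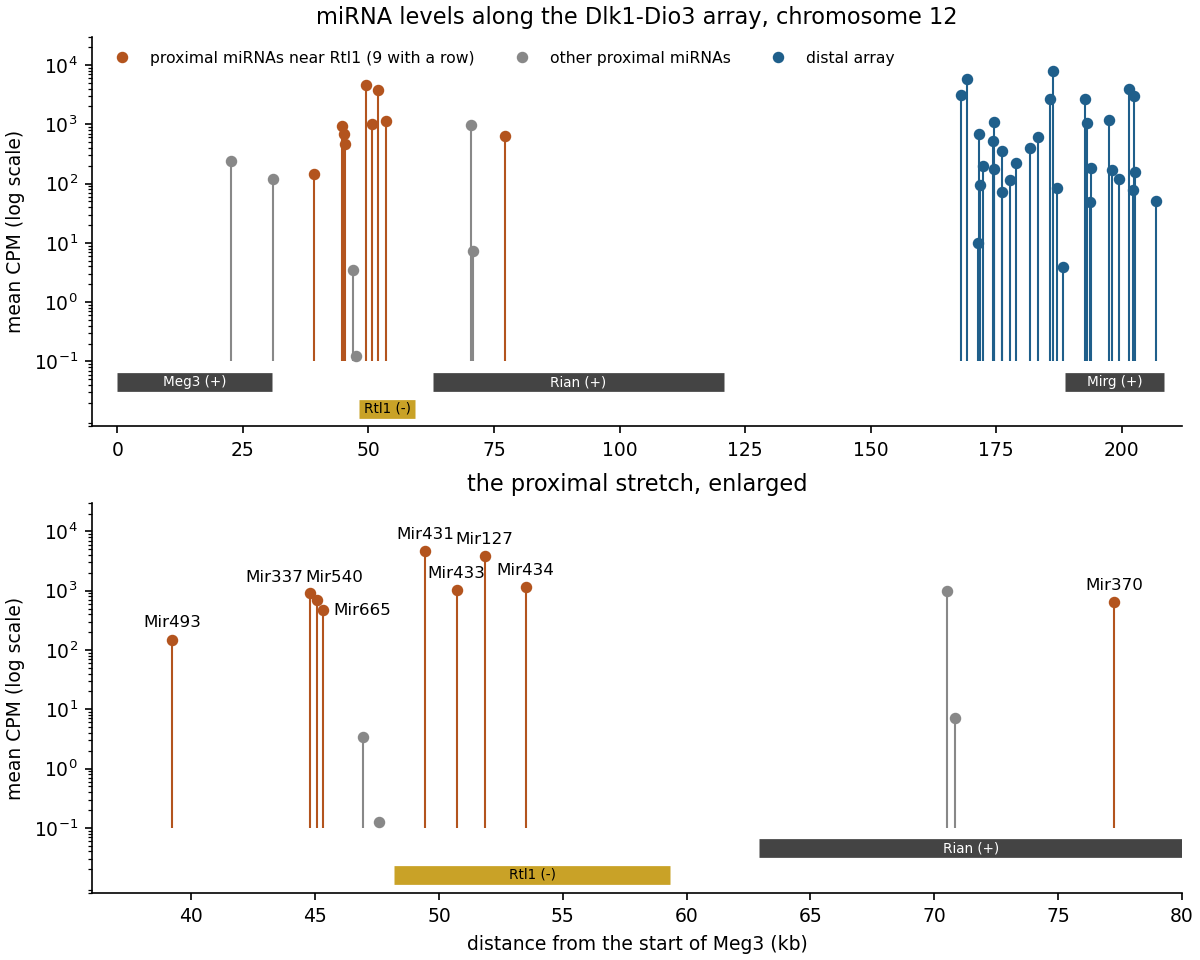
Mean CPM of the plus-strand miRNA genes of the array with a count (log axis), by distance in kb from the start of Meg3, for the whole array (upper panel) and its proximal stretch (lower panel). Orange points are the 9 members with a row, gray points other proximal genes and blue points the distal array, and bars mark the host and neighbouring genes with their strand. Mir431 at 4621 CPM and Mir127 at 3779 CPM, both over Rtl1, stand above the other members.

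The genes antisense to Rtl1 held most of the signal. Mir431, known in mouse sensory neurons for promoting axon regrowth, had 19570 counts in replicate 1 and 16081 in replicate 2, or 5277 and 3965 CPM. Its mean of 4621 ± 928 CPM was the highest of the group. Mir127, among the miRNAs first described as antisense to Rtl1, had 15546 and 13656 counts, or 4192 and 3367 CPM, with a mean of 3779 ± 583 CPM. Mir434, the last member over Rtl1 with a row, had 4116 and 4707 counts, or 1110 and 1161 CPM, and a mean of 1135 ± 35.9 CPM. Mir433, between Mir431 and Mir127, had 4628 and 3176 counts, or 1248 and 783 CPM, and a mean of 1015 ± 329 CPM. Mir431 and Mir127 alone held 63.4% of the group's counts in replicate 1 and 61.6% in replicate 2. With Mir433 and Mir434 the antisense genes held 79.2% and 78.0%.

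The genes upstream of Rtl1 had lower mean levels than those antisense to it, but in replicate 2 Mir337 (912 CPM) stood above Mir433 (783 CPM). Mir337 had 3492 counts in replicate 1 and 3698 in replicate 2, or 942 and 912 CPM, and a mean of 927 ± 21.1 CPM. Mir540 had 2779 and 2505 counts, or 749 and 618 CPM, and averaged 683 ± 93.1 CPM. Mir665 had 1929 and 1648 counts, or 520 and 406 CPM, and averaged 463 ± 80.5 CPM. These close neighbours stood in the order Mir337, Mir540, Mir665 in both libraries, which is also their order along the chromosome. Mir493, the first hairpin, known in human colon cancer cells as a suppressor of metastasis, was the lowest member, with 746 and 385 counts, or 201 and 94.9 CPM, and a mean of 148 ± 75.1 CPM. Together these 4 genes held 16.2% and 17.1% of the group's counts.

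Mir370, the member inside Rian, had 2540 counts in replicate 1 and 2392 in replicate 2, or 685 and 590 CPM. Its mean of 637 ± 67.3 CPM fell between those of Mir540 and Mir665, although it stands far from both on the chromosome.

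By mean CPM the order was Mir431, Mir127, Mir434, Mir433, Mir337, Mir540, Mir370, Mir665 and Mir493, and the highest exceeded the lowest by 31.2-fold. Of the 8 neighbouring pairs in this order, 4 had ranges over the libraries that overlapped. These were Mir431 and Mir127, Mir434 and Mir433, Mir433 and Mir337, and Mir540 and Mir370. Mir431 exceeded Mir127 in both libraries, with ratios of 1.26 (replicate 1) and 1.18 (replicate 2), and Mir540 exceeded Mir370 with ratios of 1.09 and 1.05. The order turned round between libraries for Mir434 over Mir433, with ratios of 0.889 and 1.48, and for Mir433 over Mir337, with ratios of 1.33 and 0.859. The largest steps that held in both libraries were Mir127 over Mir434 at 3.78-fold and 2.90-fold, and Mir665 over Mir493 at 2.59-fold and 4.28-fold. With n = 2 the smallest two-sided p that an exact permutation of paired libraries allows is 0.5, so no order was tested.

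**Figure D2:**
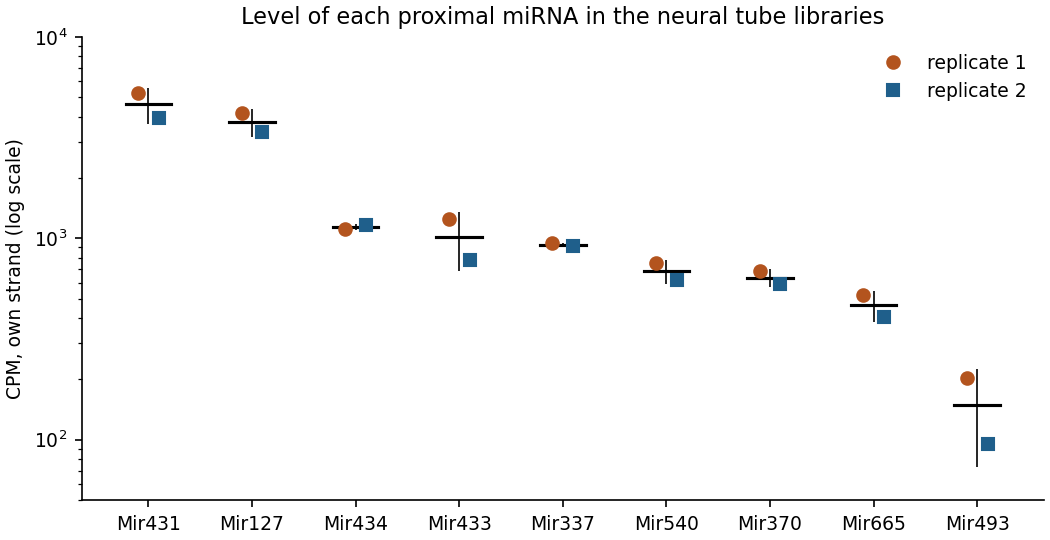
CPM on the own strand (log axis) of each of the 9 proximal miRNA genes in replicate 1 (circles) and replicate 2 (squares), with the mean (horizontal line) and SD (vertical line, n = 2), in order of mean level. Mir431 and Mir127 are at 3367 CPM or more in both libraries, and Mir493, at 201 and 94.9 CPM, stands lowest in both.

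To set the libraries side by side, an exact binomial test (two-sided) took the total of each library as its expected share. Benjamini-Hochberg adjustment ran over all 444 genes whose summed counts reached 10. This sets 2 libraries of the same group against counting noise and compares no conditions. Of the 9 members, 7 were higher in replicate 1 and none in replicate 2 at an adjusted p under 0.05. Among all genes tested, 45.3% passed on the side of replicate 1 and 7.88% on that of replicate 2. Every member had over 1000 summed counts, and of the 186 genes with at least 1000 summed counts, a limit chosen after seeing the data, 69.9% and 15.6% did so. At an unadjusted p under 0.05, 7 members were higher in replicate 1 and 1, Mir434, in replicate 2, beside 47.7% and 8.33% of all genes tested. The members' median log2 ratio (replicate 1 over replicate 2) was 0.32, beside 0.27 for all genes tested.

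That general shift depends on the scaling. When TMM (trimmed mean of M values, from edgeR) set the scale, every log2 ratio moved by -0.28, the members' median came to 0.032 and that of all genes to -0.016. Under it 3 members, Mir493, Mir433 and Mir431, were higher in replicate 1 and 2, Mir337 and Mir434, were higher in replicate 2, beside 18.5% and 21.6% of all 444 genes. With DESeq2's size factors 5 and 2 members passed, beside 23% and 19.1% of all genes, and with a total that leaves out the 10 most abundant genes, added after seeing the data, again 5 and 2, beside 24.8% and 16.7%. By library totals, 7 and 1 members passed when only genes with at least 100 summed counts were tested, beside 63.8% and 11% of these genes. With reads on either strand 7 and 1 passed, beside 46% and 7.93%. When a 1.5-fold difference was also asked for, 2 and 0 members passed, beside 14.2% and 0.901% of all 444 genes.

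Mir493 set the libraries apart most within the group, with 201 CPM in replicate 1 and 94.9 CPM in replicate 2. It was 2.12-fold higher in replicate 1 (95% exact interval 1.87 to 2.40, exact binomial adjusted p = 5.22e-34), and 1.74-fold higher with TMM scaling. Mir433 was 1.59-fold higher (1.52 to 1.67, exact binomial adjusted p = 1.25e-91), and 1.31-fold with TMM scaling. Mir431 was 1.33-fold higher (1.30 to 1.36, exact binomial adjusted p = 1.66e-158), and 1.09-fold with TMM scaling. These 3 genes kept their direction and their call under every scaling tried.

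Mir665 was 1.28-fold, Mir127 1.24-fold, Mir540 1.21-fold and Mir370 1.16-fold higher in replicate 1, with exact binomial adjusted p of 5.11e-07 or less. With TMM scaling the first pair came to 1.05-fold and 1.02-fold and passed no test, and Mir540 and Mir370 came to 0.996-fold and 0.953-fold, on the other side of equality, and passed none either. Mir337 had a ratio of 1.03 of replicate 1 over replicate 2 (95% exact interval 0.986 to 1.08, exact binomial adjusted p = 0.275). Mir434 had a ratio of 0.956 (0.917 to 0.997, exact binomial adjusted p = 0.0677). With TMM scaling these ratios were 0.848 (exact binomial adjusted p = 1.43e-11) and 0.785 (exact binomial adjusted p = 5.34e-29), both then higher in replicate 2.

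The make-up of the group within each library does not depend on scaling. Mir434 formed 7.44% of the members' counts in replicate 1 and 9.76% in replicate 2, while Mir433, 2 hairpins away and also antisense to Rtl1, formed 8.36% and 6.58%. Mir337 formed 6.31% and 7.66%, Mir493 1.35% and 0.798%, and Mir431 35.4% and 33.3%. Mir127 stayed close, at 28.1% and 28.3%, as did Mir540 at 5.02% and 5.19% and Mir665 at 3.49% and 3.42%. The shares of Mir433 and Mir434 thus differed between the libraries in opposite directions.

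**Figure D3:**
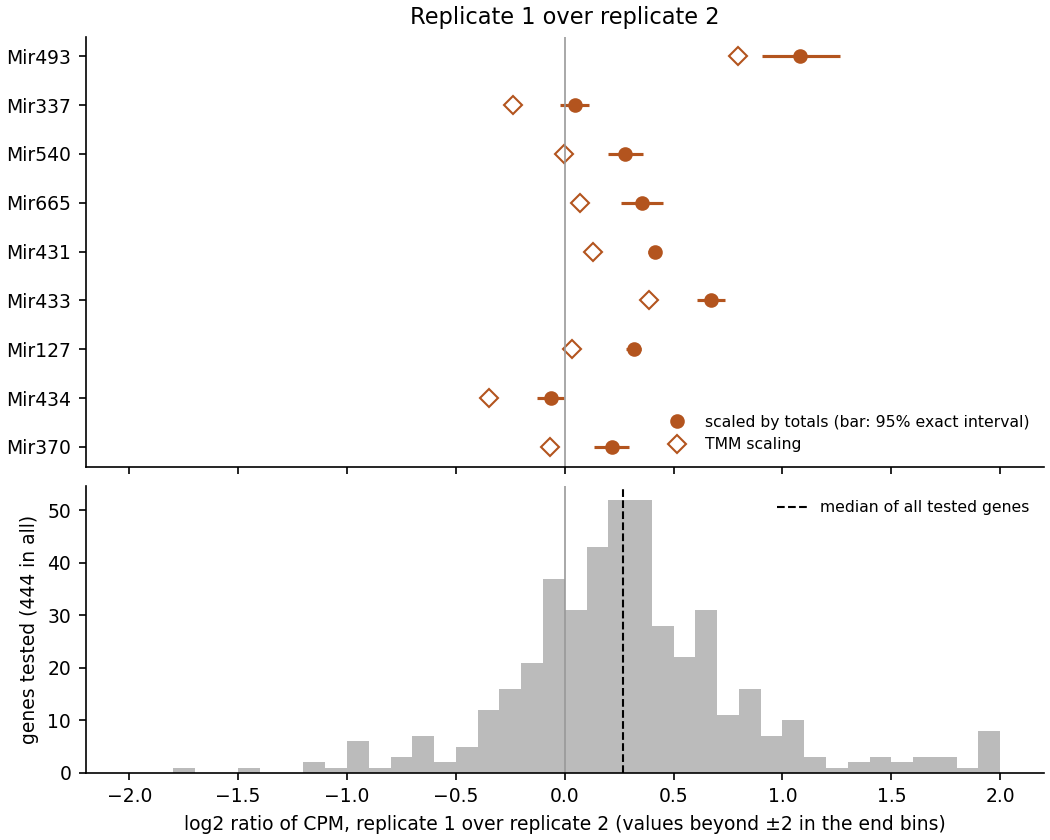
Upper panel, log2 ratio of replicate 1 over replicate 2 for the 9 members in chromosome order, scaled by library totals (filled circles, with 95% exact binomial intervals) and by TMM (open diamonds). Lower panel, the same ratio scaled by totals over the 444 genes tested, with their median of 0.27 as a dashed line. Mir493 lies farthest right at 1.08, and Mir434 is the only member left of 0 by totals, while with TMM Mir337, Mir540 and Mir370 lie left of 0 too.

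The opposite strand was read separately in the tables, and over Rtl1 it is the strand of the Rtl1 mRNA. Mir431, Mir433, Mir127 and Mir434, all over the Rtl1 coding sequence, had 0 opposite-strand reads in both libraries. For Mir431 this allows up to 0.0153% of its reads on either strand in replicate 1 and 0.0187% in replicate 2, and for Mir127 up to 0.0193% and 0.0220%. Mir493, Mir540, Mir665 and Mir370 also had none. Over the 384 genes with at least 10 reads on either strand in both libraries, 85.2% had no opposite-strand read, so a count of 0 was the rule for the table. These libraries held RNA under 30 nt, so a count of 0 here says nothing of the Rtl1 mRNA.

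Mir337 was the exception, with 3 opposite-strand reads in replicate 1 and 9 in replicate 2, or 0.0858% (95% exact binomial interval 0.0177 to 0.251) and 0.243% (0.111 to 0.460) of its reads. The mature arms of Mir3544, which has no row used here, lie on that strand within the bounds of the Mir337 hairpin (chromosome 12, 109585813 to 109585873). The arms of both genes are shown because they overlap on opposite strands, again with the seed in capitals.
miR-337-5p: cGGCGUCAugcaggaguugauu
miR-337-3p: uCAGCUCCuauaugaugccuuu
miR-3544-5p: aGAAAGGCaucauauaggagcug
miR-3544-3p: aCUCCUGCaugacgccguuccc

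Mir136 had no row under its GENCODE M21 identifier (ENSMUSG00000104858.1), and its level was therefore not measured by the rule that chose the members. A row did lie on its locus. ENSMUSG00000070129.1 had 792 own-strand counts in replicate 1 and 669 in replicate 2, or 214 and 165 CPM (189 ± 34.4 CPM), with 1 and 0 opposite-strand reads. GENCODE M21 gives this identifier, in a later version, to Mir3071, on the minus strand from 109595318 to 109595397, around Mir136 on the plus strand. The tables were made with GENCODE M4, whose strand for this identifier was not analysed here. Whether these counts belong to Mir136 or to Mir3071 was therefore not settled here. The mature forms of Mir3071 overlap those of Mir136 on the other strand.
miR-3071-5p: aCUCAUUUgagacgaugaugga
miR-3071-3p: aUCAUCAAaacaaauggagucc

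At other loci of the array where a row on the minus strand in GENCODE M21 overlaps a plus-strand miRNA, reads fell on the opposite strand of the row. Mir299b, over Mir299a, had 14 own-strand and 6907 opposite-strand reads in replicate 1, and 6 and 5413 in replicate 2. Gm25750 over Mir380, Gm25252 over Mir376a and Gm24321 over Mir409 had 0 own-strand reads and between 4000 and 23263 opposite-strand reads per library. Of the rows of the array placed so by GENCODE M21, only that on the Mir136 locus had its reads on the own strand. Its strand in GENCODE M4 was not analysed, so it may not have been a minus-strand row when counted. With its counts added to the group, a choice made after seeing the data, the share of the group was 1.36%. That row was 1.29-fold higher in replicate 1 (95% exact interval 1.17 to 1.44, exact binomial adjusted p = 2.61e-06).

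**Figure D4:**
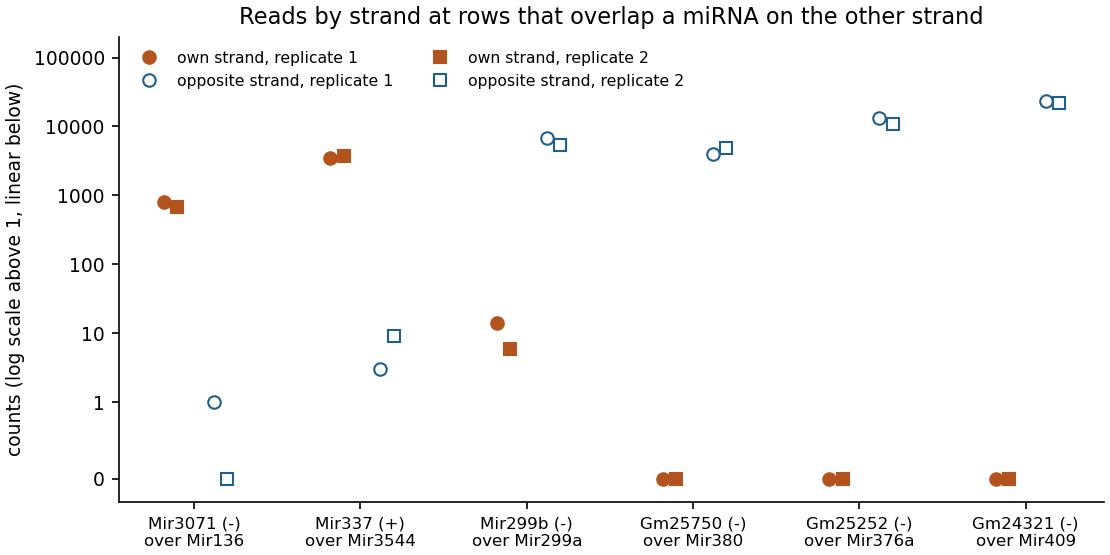
Counts on the own strand (filled) and the opposite strand (open) of 6 rows that overlap a miRNA on the other strand, in replicate 1 (circles) and replicate 2 (squares), on an axis that is logarithmic above 1 count. The row over Mir136, named Mir3071 by GENCODE M21, has 792 and 669 own-strand counts, and its strand at counting is not known. The Mir299b, Gm25750, Gm25252 and Gm24321 rows have their reads on the opposite strand.

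The members took fewer counts than the distal array, the miRNA genes from Mir379 to Mir3072 in and before Mirg. Their summed counts were 0.372 of those of the 34 distal genes with a row in replicate 1 and 0.350 in replicate 2, a ratio of 0.361 ± 0.0153. Without hairpins that share a run of 20 nt with another, which drops Mir411, Mir758, Mir376c and Mir487b, the ratio was 0.593. The 34 genes leave out Mir299a, Mir380, Mir376a and Mir409, which had no row. With the opposite-strand reads at their loci given to them, a choice made after seeing the data, the ratio was 0.274. Per gene, Mir431 and Mir127 stood within the range of the leading distal genes counted on the own strand of a row, which were Mir487b at 8015 ± 1109 CPM, Mir411 at 5913 ± 1314 CPM, Mir541 at 3928 ± 1136 CPM and Mir379 at 3104 ± 555 CPM. This order leaves out Mir409 and Mir376a, whose loci had 23263 and 13283 reads in replicate 1 and 21822 and 10864 in replicate 2 on the opposite strand of other rows. In the own-strand counts by library totals, 22 of 32 distal genes tested were higher in replicate 1 and 2 in replicate 2. Over all genes tested these shares were 45.3% and 7.88%. The median log2 ratio of the distal genes was 0.43, beside 0.27 for all genes. With TMM scaling 13 and 7 distal genes passed, beside 18.5% and 21.6% of all genes, with medians of 0.15 and -0.016. Whether the members and the distal genes differ in this was not tested.

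The other proximal miRNA genes took 0.155% ± 0.0195 of counts, against 1.34% for the 9 members. Mir341, inside Rian like Mir370, led them at 987 ± 76.4 CPM. It was followed by Mir770 in Meg3 at 243 ± 80.03 CPM, the row named Mir3071 by GENCODE M21, and Mir673 at 120 ± 4.70 CPM. Mir3070a and Mir3070b, between Mir665 and Mir431, had 11 and 0 counts in replicate 1 and 16 and 1 in replicate 2. Their neighbours Mir665 and Mir431 had at least 1648 counts per library. Mir432, between Mir434 and Mir136 and also antisense to Rtl1, had no read on either strand in either library and was named after its values were seen. A count of 0 allows up to 3 counts, or 0.809 CPM in replicate 1 and 0.740 CPM in replicate 2. Of 6 genes of this list tested, 3 were higher in replicate 1 and none in replicate 2, beside 45.3% and 7.88% of all genes. None passed in replicate 2 at an unadjusted p under 0.05 either, beside 8.33% of all genes. With TMM scaling 1 was higher in replicate 1 and 1 in replicate 2, beside 18.5% and 21.6%.

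Marker miRNAs of neural and of other cell types were both present. Neural markers with a row, 10 of 11 listed, took 0.872% of counts in replicate 1 and 0.752% in replicate 2, led by Mir92b at 4979 ± 383 CPM and Mir137 at 1965 ± 289 CPM. Mir9-3 stood at 200.1 CPM, Mir9-2 at 2.31 CPM and the copies of Mir124a, also on the neural list, between 1.56 and 10.5 CPM. Reads mapped to several places, 25.2% and 27.3% of all reads, were counted for no gene, and these copies share sequence. Mesenchyme markers took 1.79% in replicate 1 and 1.26% in replicate 2, muscle markers 0.146% and 0.0939%, with Mir133a-1 and Mir133a-2 at 0, and blood markers 0.0786% and 0.0559%. Mir133a-1 and Mir133a-2 are also copies, and reads mapping to both were counted for neither. Their count of 0 therefore does not show absence. The endothelial marker Mir126a took 2.49% and 2.23%, and the liver marker Mir122 stood at 7.85 CPM. By library totals, replicate 1 over replicate 2 gave ratios of 1.25 for the members, 1.42 for the mesenchyme list, 1.56 for muscle, 1.41 for blood, 1.16 for neural, 1.12 for endothelial and 0.991 for liver. With TMM scaling these ratios were 1.03, 1.17, 1.28, 1.16, 0.953, 0.918 and 0.814. The summed neural and endothelial counts thus turned to the side of replicate 2. The neural sum rests largely on Mir92b, with 19469 of 32356 counts in replicate 1 and 19096 of 30501 in replicate 2. TMM moved every log2 ratio by -0.28. By totals that ratio was 0.16 for Mir92b, 0.27 for Mir124a-1, -0.0046 for Mir9-3 and -0.18 for Mir9-2, which TMM put toward replicate 2. For Mir137 and Mir153 it was 0.30, for Mir124a-2 0.38, for Mir124a-3 0.58, for Mir128-2 0.61 and for Mir128-1 0.79, which stayed toward replicate 1. The muscle ratio rests on Mir206, with 5038 of 5425 counts in replicate 1 and 3085 of 3807 in replicate 2, while Mir208a and Mir208b had ratios of 0.486 and 0.441 (exact binomial adjusted p = 0.0337 and 2.04e-26). The mesenchyme sum rests largely on Mir214 and Mir140, with 44202 and 20211 of 66357 counts in replicate 1. In replicate 2 they had 32318 and 17002 of 51133. By totals their log2 ratios were 0.58 and 0.38, which stayed toward replicate 1 with TMM. Those of Mir199b and Mir199a-1 were 0.22 and 0.0901, which TMM put toward replicate 2. That of Mir199a-2 was 0.28, which TMM put near equality. The liver ratio is that of Mir122 alone, with 29 and 32 counts. The part of these lists in the difference between the libraries was not tested.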

How the data were processed

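The authors deposited raw counts of reads for each miRNA gene, made with mm10 and GENCODE M4 per the notes deposited beside the tables. No source used here names the aligner or counter. The 3 unnamed count columns were read as either, own and opposite strand, since over gene rows the first is the sum of the other 2. Own-strand counts were used. Rows that name no gene (56.5% of reads in replicate 1 and 47.0% in replicate 2) stayed out of totals and tests. Each table belongs to 1 library.

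Symbols, coordinates and hairpins came from GENCODE M21 by identifier (1894 of 1973 rows matched, 1815 in the same version). The versions of Mir337, Mir540 and Mir127 differ, so their bounds at counting may too. All 10 members matched the RefSeq miRNA table. The members, lists and tests were chosen with earlier results of these data known. Named were all members, up to 4 leading genes of each other list of the array, rows overlapping a member, and miRNAs sharing a seed. With 1 group no contrast exists, so the exact binomial test replaced edgeR's. Its p-values and intervals treat reads as independent and leave out variation between libraries. The p-values are too small for that reason, and also where PCR copied a molecule. The common coefficient of variation between the libraries, by edgeR with TMM scaling, was 17.6%. The labels name separate pools but not separate preparations. Log2 ratios carry a pseudocount of 0.5 counts, while fold differences and other ratios carry none. The test was also run on data simulated with counting noise alone. That run held no variation between libraries, so it cannot show how often the test errs here. Alternatives were TMM (edgeR 4.0.16), DESeq2 1.42.0 size factors (R 4.3.3), other filters, strand and totals. Other tools were Python 3.11.15, numpy 2.4.6, pandas 2.3.3, scipy 1.17.1 and RNAfold 2.7.2.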

Additional observations from a re-analysis of the deposited data

Results flagged for a closer look

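Mir337 had 9 opposite-strand reads in replicate 2, more than the 3 reads that a count of 0 allows, and 3 in replicate 1. They lie outside the own-strand counts on which the levels rest.

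The row on the Mir136 locus, annotated as Mir3071 in GENCODE M21, had 792 own-strand counts in replicate 1 and 669 in replicate 2. It is no member by identifier, and the gene these reads come from was not tested.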

How the results depend on the processing

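No paired analysis was possible because the libraries form a single group. The share of the members was 0.640% with all reads as the denominator and 3.12% of the total without the 10 most abundant genes. In what follows the share of all genes tested is in brackets. Members higher in replicate 1 numbered 3 with TMM scaling (18.5%) and 2 when a 1.5-fold difference was also asked for (14.2%). Members higher in replicate 2 numbered 2 with TMM scaling (21.6%) and 2 with DESeq2's size factors (19.1%). They numbered 2 with the total without the 10 most abundant genes (16.7%), which was added after seeing the data. They numbered 1, Mir434, both with at least 100 summed counts (11%) and with reads on either strand (7.93%). The median log2 ratio of the members was 0.032, 0.082 and 0.11 under TMM scaling, DESeq2's size factors and that reduced total. Mir337 turned to -0.24, -0.19 and -0.16 on the log2 scale under these scalings. Mir540 turned to -0.0056 with TMM scaling, and Mir370 to -0.069 with TMM scaling and -0.019 with DESeq2's size factors. The shifts follow from the scaling itself, which moves all genes alike by -0.28, -0.23 and -0.21. The ratio of member to distal counts was 0.593 without hairpins that share 20 nt, which drops Mir411, Mir758, Mir376c and Mir487b from the distal array. It was 0.274 with opposite-strand reads given to Mir299a, Mir380, Mir376a and Mir409, and 0.135 without Mir431 and Mir127, both chosen after seeing the data. Leaving out a library leaves 1 value and no test, and the share then ranged from 1.19% to 1.49%. Depth limits statements on Mir3070b and Mir432, with at most 1 count per library. For Mir3070a and Mir3070b a loss of reads that map to both was not tested.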
